A study of Mus musculus with 16 samples.

Results

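The p53 arrest and feedback targets described here are 10 genes taken by name from the gene table, namely Cdkn1a, Mdm2, Ccng1, Phlda3, Zmat3, Sesn2, Trp53inp1, Plk2, Btg2 and Eda2r. The choice by name used no cutoff on a measured value, but it was made with earlier results of these data known. All 10 were found among the 45777 genes listed, and all 10 passed the requirement of at least 1 read in every tumor, as did 16209 genes in total. RNA had been sequenced from 16 subcutaneous tumors of B16F10, a mouse melanoma line that is 1 line throughout, in 4 groups of 4. The hosts were lean C57BL/6J mice or obese ob/ob mice, which lack leptin, and both received the cells at an age of 6 weeks. In each host, 4 tumors were labelled pre-therapy and 4 post chemotherapy, here etoposide (ETS), a topoisomerase II inhibitor that leaves DNA double-strand breaks, injected 5 times at 20 mg per kg. The titles of the pre-therapy tumors read ctrl. Whether their hosts received a vehicle is not stated and the labels name no vehicle group, so ETS and the time that passed while it was given cannot be told apart. Nothing states that each tumor came from its own mouse, and p-values measure the spread between these tumors. A whole tumor holds host cells beside melanoma cells, and in such bulk RNA fewer cells of a type and less RNA per cell cannot be told apart.

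p53 is a transcription factor that is held at a low level by the ubiquitin ligase Mdm2 and is stabilized when DNA is damaged. Its targets include genes that stop the cell cycle, above all Cdkn1a, which encodes the cyclin-dependent kinase inhibitor p21, and genes that feed back on p53 itself, such as Mdm2 and Ccng1. Induction of these targets is a common readout of p53 activity after topoisomerase poisons, and the amount of Trp53 mRNA need not change with it, since p53 is controlled largely as a protein.

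p53 binds a pair of 10-base units of its consensus, with or without a spacer. RefSeq promoter windows (GRCm38.p6, the assembly of mm10, from 250 bases before to 50 bases after a transcription start) were at hand for 8 of the 10 genes, with 9 starts, and not for Zmat3 and Trp53inp1. They were searched for a full site, a pair of p53 10-base units 0 to 13 bases apart with at most 1 mismatch in all and the central C and G of each unit kept. The unit is its own reverse complement in its code, so both strands were covered. A full site was present in 2 of the 8 genes (25.0%), Cdkn1a and Ccng1, against 0.72% of 27025 genes in the table, and at least 1 perfect unit in 3 of them (37.5%), against 9.55%. The genes were chosen as p53 targets, so shares above those of all genes can follow from the choice and are no test. The 3 windows that held a match are printed because they include the gene of the largest change after ETS in lean tumors, Cdkn1a, and both feedback genes that act on Mdm2 or are Mdm2. Capitals mark the matched units and all else is in lower case.
Cdkn1a, upstream start, chr17:29090729-29091028, plus strand: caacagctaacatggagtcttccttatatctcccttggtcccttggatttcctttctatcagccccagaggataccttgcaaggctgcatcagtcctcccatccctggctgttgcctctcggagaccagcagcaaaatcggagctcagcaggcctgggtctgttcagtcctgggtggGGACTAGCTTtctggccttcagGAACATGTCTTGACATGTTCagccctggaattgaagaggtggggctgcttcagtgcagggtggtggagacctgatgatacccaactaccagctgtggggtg
Ccng1, chr11:40755237-40755536, minus strand: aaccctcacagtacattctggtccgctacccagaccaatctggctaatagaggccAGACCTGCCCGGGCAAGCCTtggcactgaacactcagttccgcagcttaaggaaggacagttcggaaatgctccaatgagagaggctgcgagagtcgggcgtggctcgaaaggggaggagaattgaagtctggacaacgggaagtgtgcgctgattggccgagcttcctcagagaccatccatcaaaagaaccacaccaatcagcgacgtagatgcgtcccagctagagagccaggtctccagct
Mdm2, chr10:117710709-117711008, minus strand: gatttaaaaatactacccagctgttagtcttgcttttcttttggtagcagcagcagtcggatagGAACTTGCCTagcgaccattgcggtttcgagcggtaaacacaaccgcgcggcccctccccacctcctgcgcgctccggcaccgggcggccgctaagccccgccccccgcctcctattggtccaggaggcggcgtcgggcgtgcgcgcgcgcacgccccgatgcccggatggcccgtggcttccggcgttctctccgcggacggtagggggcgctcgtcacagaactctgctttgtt
In Cdkn1a, one full site without a spacer ran from -51 to -32 relative to the start with 1 mismatch, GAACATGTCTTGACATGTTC, and a perfect pair with a spacer of 12 bases ran from -73 to -42, so the pairs shared the unit GAACATGTCT. The other Cdkn1a start had no match. The Ccng1 site, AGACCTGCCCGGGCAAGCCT, lay from -195 to -176 with no spacer and 1 mismatch, and Mdm2 had a single unit, GAACTTGCCT, from -186 to -177. The window of Mdm2 covers its upstream promoter, whereas the p53-responsive promoter known for this gene lies in its first intron and was not searched. A match is a run of letters and no measurement of binding, and the windows of Phlda3, Sesn2, Plk2, Btg2 and Eda2r had none of these letters, which says nothing about sites elsewhere.

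**Figure D1:**
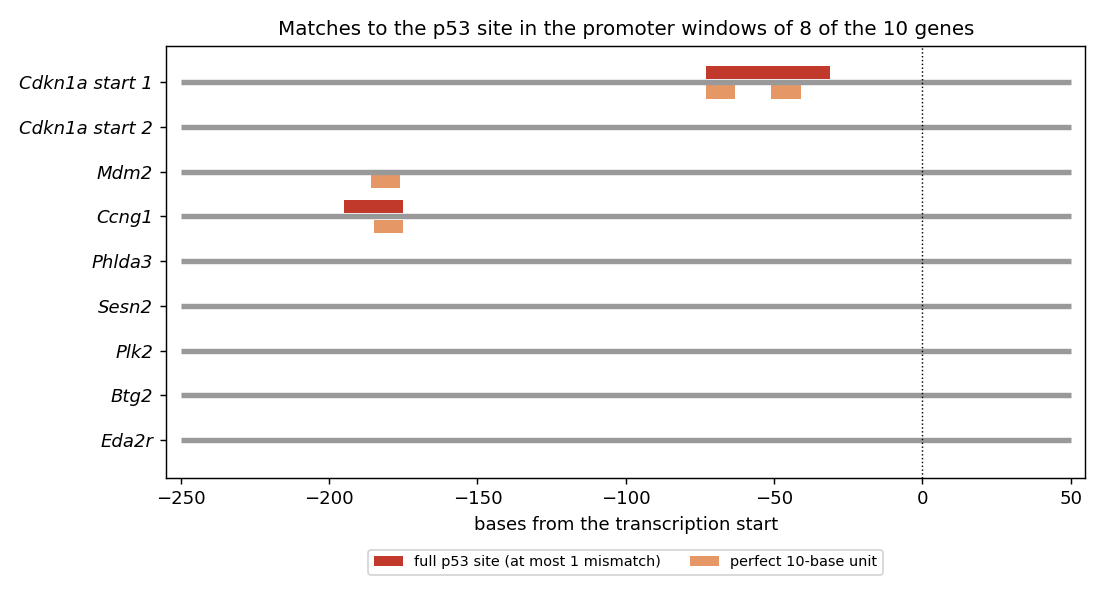
Matches to the p53 site in the 9 RefSeq promoter windows of 8 of the 10 genes, by distance in bases from the transcription start (dotted line). Red blocks above a line are full sites with at most 1 mismatch and orange blocks below it are perfect 10-base units; 2 overlapping full sites in the first Cdkn1a window merge into 1 block, and Ccng1 holds the other full site.

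Total counts ranged from 47199949 to 61655287 per tumor. Levels are given as CPM, read counts relative to the TMM-scaled library size, and genes are compared with each other only in TPM, which is per length. Changes are log2 fold changes from edgeR's quasi-likelihood fit with its adjusted p over all 16209 genes, and a gene is called at an adjusted p under 0.05. The melanocyte identity of the tumors was checked with Mitf, the lineage factor, at group means of 416 to 600.3 CPM, and Tyr, tyrosinase, at 546 to 1303 CPM, which were present in every group. The third lean pre-therapy tumor stood apart over the 10 genes. Their mean log2 CPM (prior count 2) was 4.14 there, against 4.67 to 4.74 in the other 3, and it had the lowest level of the 4 for 8 of the 10 genes.

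All 10 genes rose after ETS in lean tumors and all 10 rose in obese tumors, and in both hosts every tumor after ETS lay above every pre-therapy tumor for every one of them. Beside these counts, 21.0% of all tested genes were called higher and 22.8% lower after ETS in lean tumors, and 21.2% higher and 19.0% lower in obese tumors. Non-overlapping ranges with all ETS tumors higher were found for 20.8% of all tested genes in lean and 16.4% in obese tumors. Over the 10 genes the median log2 fold change was 2.32 for lean hosts and 1.30 for obese hosts, against -0.015 and 0.0066 over all tested genes. The mean log2 CPM of the 10 genes was 4.57 ± 0.28 in lean pre-therapy tumors (SD, n = 4), 6.68 ± 0.033 in lean tumors after ETS, 5.40 ± 0.086 in obese pre-therapy tumors and 6.74 ± 0.045 in obese tumors after ETS. The pre-therapy groups thus differed by more than the groups after ETS did, and the lean pre-therapy group had the widest spread. Without the third lean pre-therapy tumor, 9 of the 10 genes were called in lean tumors, the exception being Btg2.

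Per length, Cdkn1a was the most abundant of the 10 mRNAs in all 4 groups, from 124 ± 37.8 TPM in lean pre-therapy tumors to 1042 ± 71.5 TPM after ETS (SD, n = 4), and from 531 ± 54.5 to 1200.1 ± 76.9 TPM in obese tumors. Ccng1 and Phlda3 came next and lay within each other's spread in lean tumors, at 56.9 ± 8.04 and 56.7 ± 15.5 TPM before therapy and at 374 ± 18.6 and 368 ± 43.9 TPM after ETS. Trp53inp1 moved from the eighth to the fourth place in lean tumors, from 10.5 ± 1.75 to 61.7 ± 14.1 TPM, which after ETS was within the spread of Mdm2 at 55.8 ± 10.7 TPM. Btg2 at 3.25 to 9.60 TPM and Eda2r at 0.200 to 2.43 TPM, as group means, were the least abundant in every group, and Eda2r rested on 26 to 513 reads per tumor.

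**Figure D2:**
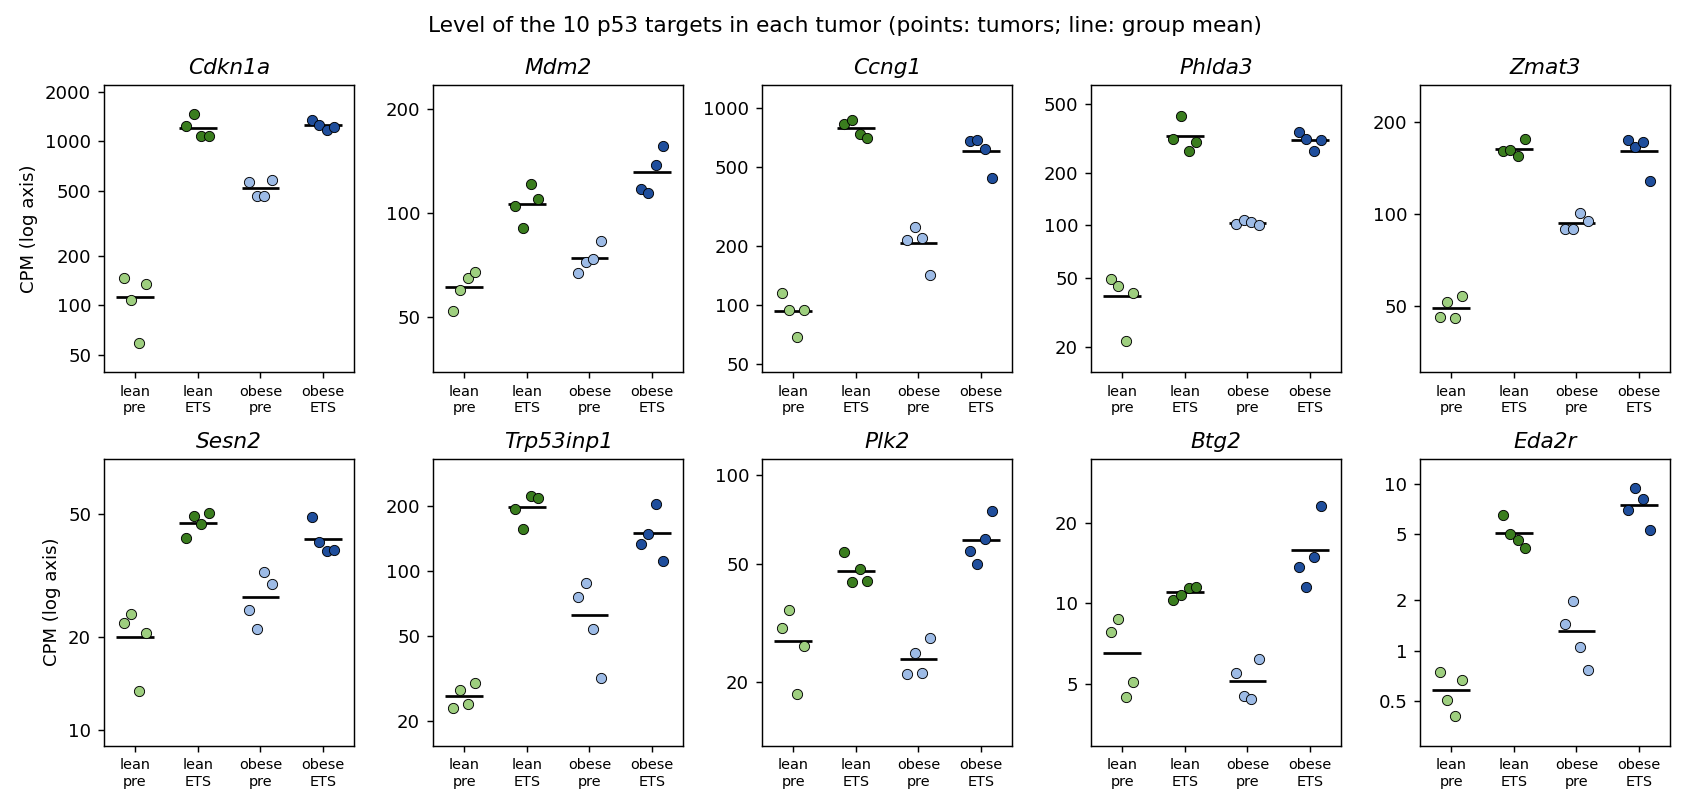
CPM of each of the 10 genes in each tumor on a log axis, by group, with 4 points for the 4 tumors and a line at the group mean. The Cdkn1a level of obese pre-therapy tumors, 467 to 584 CPM, sits between those of lean pre-therapy tumors, 58.8 to 146 CPM, and all tumors after ETS, 1073 to 1349.7 CPM in 7 of them and 1472 CPM in the highest.

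Of the arrest genes, Cdkn1a (gene ID 12575, chr17:29090979-29100722) changed most in lean tumors. Its level was 146, 108, 58.8 and 135 CPM in the lean pre-therapy tumors and 1232, 1472, 1073 and 1078 CPM after ETS. In obese tumors it was 561, 467, 467 and 584 CPM before therapy and 1349.7, 1261, 1178 and 1217 CPM after ETS. Both groups after ETS overlapped, while each obese pre-therapy tumor had more Cdkn1a RNA than any lean pre-therapy tumor. The log2 fold change after ETS was 3.44 in lean tumors (standard error 0.23, adjusted p = 3.44e-07, edgeR), an increase of 10.9-fold, and 1.27 in obese tumors (standard error 0.21, adjusted p = 0.000376), an increase of 2.41-fold. These changes differed by 2.17 on the log2 scale (95% confidence interval 1.55 to 2.80, adjusted p = 0.000185, edgeR interaction), and by 1.96 without the third lean pre-therapy tumor. An annotated transcript on the opposite strand overlaps Cdkn1a, and the strand setting of the counting is not given in the sources used here.

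Btg2 (gene ID 12227, chr1:134074865-134079155), an antiproliferative protein of the BTG and TOB family, and Plk2 (gene ID 20620, chr13:110395044-110400844), a Polo-like kinase induced by p53 and by growth signals, had the larger log2 fold change in obese tumors, a difference that was not called. Btg2 was at 7.79, 8.73, 4.45 and 5.07 CPM in lean pre-therapy tumors and at 10.2, 10.7, 11.4 and 11.5 CPM after ETS. Its level in obese tumors was 5.46, 4.49, 4.39 and 6.18 CPM before therapy and 13.7, 11.5, 14.9 and 23.1 CPM after ETS, with the fourth tumor highest. The log2 fold change of Btg2 was 0.75 in lean tumors (standard error 0.23, adjusted p = 0.0170, edgeR) and 1.62 in obese tumors (standard error 0.24, adjusted p = 0.000157). The lean call of Btg2 was lost when the third lean pre-therapy tumor was left out (0.61, adjusted p = 0.0559, edgeR), when the fourth was (0.65, adjusted p = 0.0547), and on log2(TPM + 1) (0.35, adjusted p = 0.186, limma). Plk2 was at 30.5, 35.1, 18.3 and 26.4 CPM in lean pre-therapy tumors and at 54.9, 43.6, 48.3 and 43.9 CPM after ETS. Obese tumors had 21.2, 25.0, 21.5 and 28.2 CPM of Plk2 before therapy and 55.7, 50.1, 60.8 and 75.8 CPM after ETS. In neither host did the ranges overlap. The log2 fold change of Plk2 was 0.79 in lean (standard error 0.17, adjusted p = 0.00240, edgeR) and 1.34 in obese tumors (standard error 0.18, adjusted p = 8.31e-05), and the lean call was lost on log2(TPM + 1), at 0.43 (adjusted p = 0.0701, limma). The differences between hosts, lean minus obese, were -0.87 for Btg2 (95% confidence interval -1.57 to -0.17, adjusted p = 0.0837, edgeR) and -0.55 for Plk2 (-1.07 to -0.023, adjusted p = 0.148). Without the third lean pre-therapy tumor both were, at -1.02 (adjusted p = 0.0444, edgeR) and -0.70 (adjusted p = 0.0332).

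Among the feedback genes, Mdm2 (gene ID 17246, chr10:117688875-117710758), the ligase that degrades p53, rose in both hosts, and no difference between hosts was detected. Its level was 52.0, 59.6, 64.9 and 67.3 CPM in lean pre-therapy tumors and 105, 90.2, 121 and 109.7 CPM after ETS. Obese tumors were at 67.2, 72.2, 73.3 and 83.2 CPM before therapy and at 117, 114, 138 and 156 CPM after ETS. The log2 fold changes of Mdm2 were 0.80 (standard error 0.12, adjusted p = 0.000133, edgeR) and 0.83 (standard error 0.12, adjusted p = 0.000140). The difference between them was -0.023, with a 95% confidence interval of -0.38 to 0.33 and an adjusted p of 0.941 (edgeR), an interval that does not reach the differences of Cdkn1a, Ccng1, Phlda3, Zmat3 or Trp53inp1.

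Ccng1 (gene ID 12450, chr11:40748552-40755309) encodes cyclin G1, which brings a phosphatase to Mdm2. It was at 115, 93.8, 68.4 and 94.3 CPM in lean pre-therapy tumors and at 835, 875, 738 and 709 CPM after ETS. In obese tumors Ccng1 was at 213, 249, 219.5 and 141 CPM before therapy and at 681, 693, 617 and 441 CPM after ETS. The fourth tumor was lowest in both groups, and what the tumor numbers stand for is not stated. The log2 fold change of Ccng1 was 3.09 in lean (standard error 0.20, adjusted p = 3.44e-07, edgeR) and 1.56 in obese tumors (standard error 0.19, adjusted p = 4.51e-05), a difference of 1.52 (95% confidence interval 0.96 to 2.08, adjusted p = 0.00112). Phlda3 (gene ID 27280, chr1:135766085-135769134), a small protein that competes with Akt for membrane lipids, was at 49.3, 44.6, 21.5 and 41.1 CPM in lean pre-therapy tumors and at 315, 429, 269 and 303 CPM after ETS. Phlda3 in obese tumors was at 101, 107, 104 and 101 CPM before therapy, the tightest of all groups for this gene, and at 346, 313, 267 and 309.9 CPM after ETS. Its log2 fold changes, 3.07 for lean and 1.58 for obese hosts, (standard errors 0.21 and 0.20, adjusted p = 4.16e-07 and 6.35e-05, edgeR) differed by 1.49 (95% confidence interval 0.90 to 2.08, adjusted p = 0.00197). Zmat3 (gene ID 22401, chr3:32334792-32365665), an RNA-binding zinc finger protein that acts on splicing, rose from 46.0, 51.7, 45.7 and 54.0 to 160.3, 161, 154 and 176 CPM in lean tumors and from 89.0, 89.6, 101 and 94.6 to 174, 166, 172 and 128 CPM in obese tumors. The log2 fold changes of Zmat3, 1.72 in lean and 0.78 in obese tumors (standard errors 0.099 and 0.097, adjusted p = 2.23e-07 and 5.54e-05, edgeR), differed by 0.95 (95% confidence interval 0.66 to 1.24, adjusted p = 0.000277). For each of these 3 genes the obese pre-therapy tumors lay above the lean ones without overlap, and after ETS the ranges overlapped for Phlda3 and Zmat3 and not for Ccng1.

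The remaining 3 genes encode stress and receptor proteins. Trp53inp1 (gene ID 60599, chr4:11156441-11174379), a stress protein that binds p53-activating kinases and takes part in autophagy, was at 23.0, 28.0, 23.9 and 30.0 CPM in lean pre-therapy tumors and at 195, 157, 222 and 219.9 CPM after ETS. In obese tumors it was at 75.6, 87.6, 53.8 and 31.9 CPM before therapy and at 134, 149, 205 and 111 CPM after ETS, the widest relative spread of the 10 genes among obese pre-therapy tumors apart from Eda2r. The log2 fold change of Trp53inp1 was 2.92 in lean (standard error 0.27, adjusted p = 3.31e-06, edgeR) and 1.27 in obese tumors (standard error 0.25, adjusted p = 0.00135), with a difference of 1.65 (95% confidence interval 0.90 to 2.40, adjusted p = 0.00490). On log2(TPM + 1) this difference was 1.24 and no longer called (adjusted p = 0.0553, limma). Sesn2 (gene ID 230784, chr4:132492804-132510456), a sestrin that restrains mTORC1 and is also a target of the amino acid stress factor Atf4, ranged from 13.4 to 23.7 CPM in lean pre-therapy tumors and from 41.6 to 50.2 CPM after ETS, and from 21.2 to 32.4 and from 37.9 to 49.0 CPM in obese tumors. It rose by 1.23 in lean (standard error 0.17, adjusted p = 6.49e-05, edgeR) and by 0.62 in obese tumors (log2, standard error 0.16, adjusted p = 0.00829), and the difference of 0.61 (95% confidence interval 0.12 to 1.10) was not called (adjusted p = 0.0865). Gm12981, annotated on the same strand, overlaps Sesn2. Eda2r (gene ID 245527, chrX:97333837-97377234), a receptor of the tumor necrosis factor family for ectodysplasin A2, was at 0.747, 0.507, 0.402 and 0.667 CPM in lean pre-therapy tumors and at 6.47, 5.03, 4.62 and 4.13 CPM after ETS. Obese tumors had 1.45, 1.97, 1.05 and 0.759 CPM of Eda2r before therapy and 6.96, 9.45, 8.18 and 5.27 CPM after ETS. The log2 fold change was 3.12 for lean and 2.51 for obese hosts (standard errors 0.31 and 0.30, adjusted p = 5.61e-06 and 4.04e-05, edgeR). These were not called as different, with a difference of 0.61 and a 95% confidence interval of -0.25 to 1.47 (adjusted p = 0.338).

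The difference between the changes in lean and in obese tumors was called for 5 of the 10 genes, Cdkn1a, Trp53inp1, Ccng1, Phlda3 and Zmat3, each with the larger rise in lean tumors, while 6.35% of all tested genes were called in this direction and 10.1% in the other. The median difference over the 10 genes was 0.78, against 0.052 over all tested genes. With each of the 16 tumors left out in turn, between 5 and 7 of the 10 genes were called. With TMM, 48.0% of all called genes were higher after ETS in lean tumors, 38.7% were higher for the difference, 51.0% for obese against lean tumors before therapy and 58.7% after ETS, and on log2(TPM + 1) these shares were 15.7%, 9.24%, 29.0% and 83.8%. On log2(TPM + 1) the median over all tested genes stood at -0.28 for lean and -0.052 for obese hosts, and at -0.16 for the difference. Relative to these medians, all 10 genes remained above 0 in both hosts on log2(TPM + 1), and for the difference Cdkn1a stood at 2.10, Ccng1 at 1.40, Phlda3 at 1.40, Trp53inp1 at 1.39 and Zmat3 at 0.79, while the difference of Eda2r changed sign, to -0.037.

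**Figure D3:**
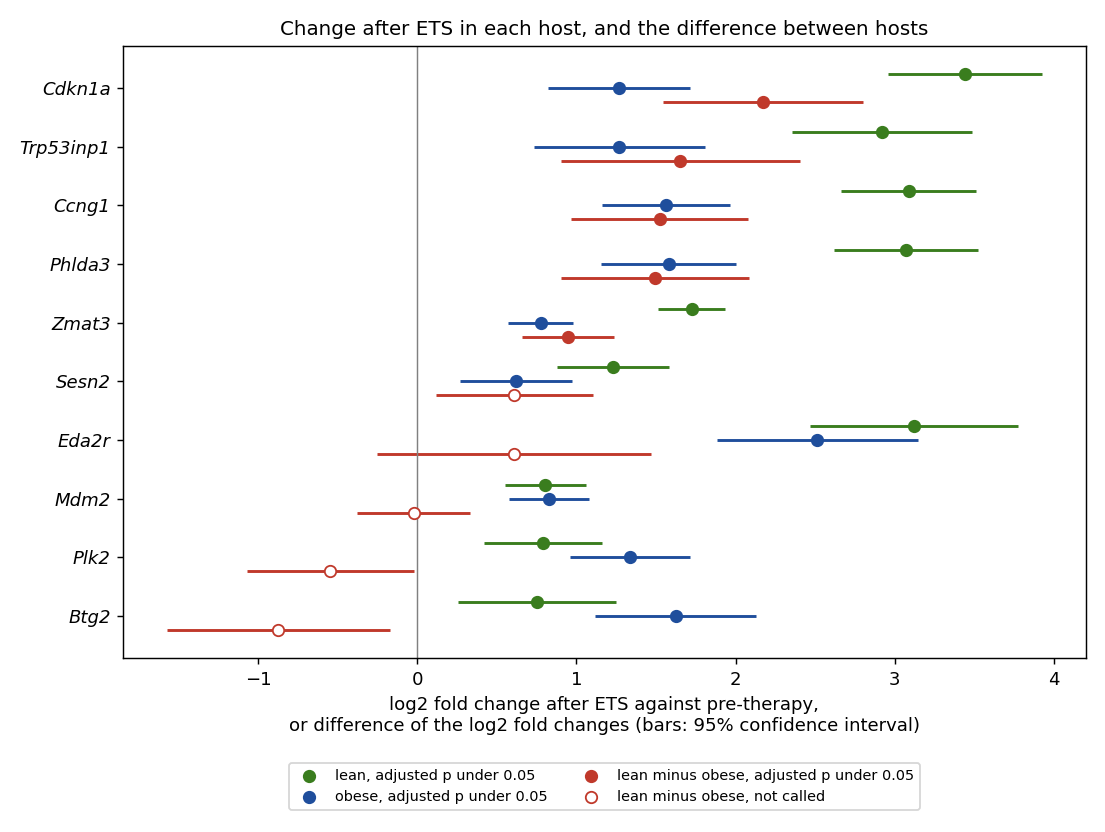
Log2 fold change after ETS against pre-therapy in lean (green) and obese tumors (blue), and the difference between them (red, lean minus obese), with 95% confidence intervals and open points where the adjusted p was not under 0.05. All green and blue points lie above 0, and the 5 filled red points run from 0.95 for Zmat3 to 2.17 for Cdkn1a.

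Before therapy, 6 of the 10 genes were higher in obese than in lean tumors, none was called lower, and for these 6 every obese tumor lay above every lean tumor. Of all tested genes, 13.5% were called higher in obese pre-therapy tumors and 12.9% lower, and 16% had ranges with all obese tumors higher. Cdkn1a differed most, by 2.22 on the log2 scale or 4.65-fold (standard error 0.22, adjusted p = 4.14e-06, edgeR). Phlda3 was higher by 1.40 (adjusted p = 0.000139, edgeR), Trp53inp1 by 1.25 (adjusted p = 0.00210), Eda2r by 1.17 (adjusted p = 0.00948), Ccng1 by 1.15 (adjusted p = 0.000418) and Zmat3 by 0.92 (adjusted p = 8.97e-06). This comparison and that of the changes after ETS use the same 8 pre-therapy tumors, so their values are not independent of each other. Sesn2 at 0.43 (95% confidence interval 0.079 to 0.78, adjusted p = 0.0669, edgeR), Mdm2 at 0.28 (0.027 to 0.53, adjusted p = 0.0965), Plk2 at -0.20 (-0.57 to 0.17, adjusted p = 0.434) and Btg2 at -0.34 (-0.84 to 0.15, adjusted p = 0.303) were not called. The Eda2r call was lost on log2(TPM + 1), at 0.23 (adjusted p = 0.186, limma), where its level is small beside the added 1. Leaving out the third lean pre-therapy tumor left the number of called genes at 6, with Cdkn1a at 2.01.

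After ETS, 0 of the 10 genes were called between obese and lean tumors by edgeR, 2 of them, Mdm2 (p = 0.0216) and Btg2 (p = 0.0371), had an unadjusted p under 0.05 in edgeR's fit across all genes, and DESeq2, limma-voom and the exact test of edgeR called 0 as well. Fewer genes were called in this comparison altogether, 3.28% of all tested genes higher and 2.30% lower in obese tumors. The log2 differences ran from -0.41 for Trp53inp1 to 0.56 for Eda2r, with a median of 0.0090. Cdkn1a differed by 0.044 (95% confidence interval -0.39 to 0.48), Phlda3 by -0.091 (-0.51 to 0.32) and Zmat3 by -0.026 (-0.23 to 0.18). These intervals leave room for changes of up to about those bounds and do not show equal levels. The 4 obese tumors were all below the 4 lean tumors for Ccng1 (441 to 693 against 709 to 875 CPM, log2 difference -0.38, adjusted p = 0.219, edgeR) and all above them for Btg2 (11.5 to 23.1 against 10.2 to 11.5 CPM, 0.53, adjusted p = 0.171), where 6.85% and 6.39% of all tested genes had such ranges.

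**Figure D4:**
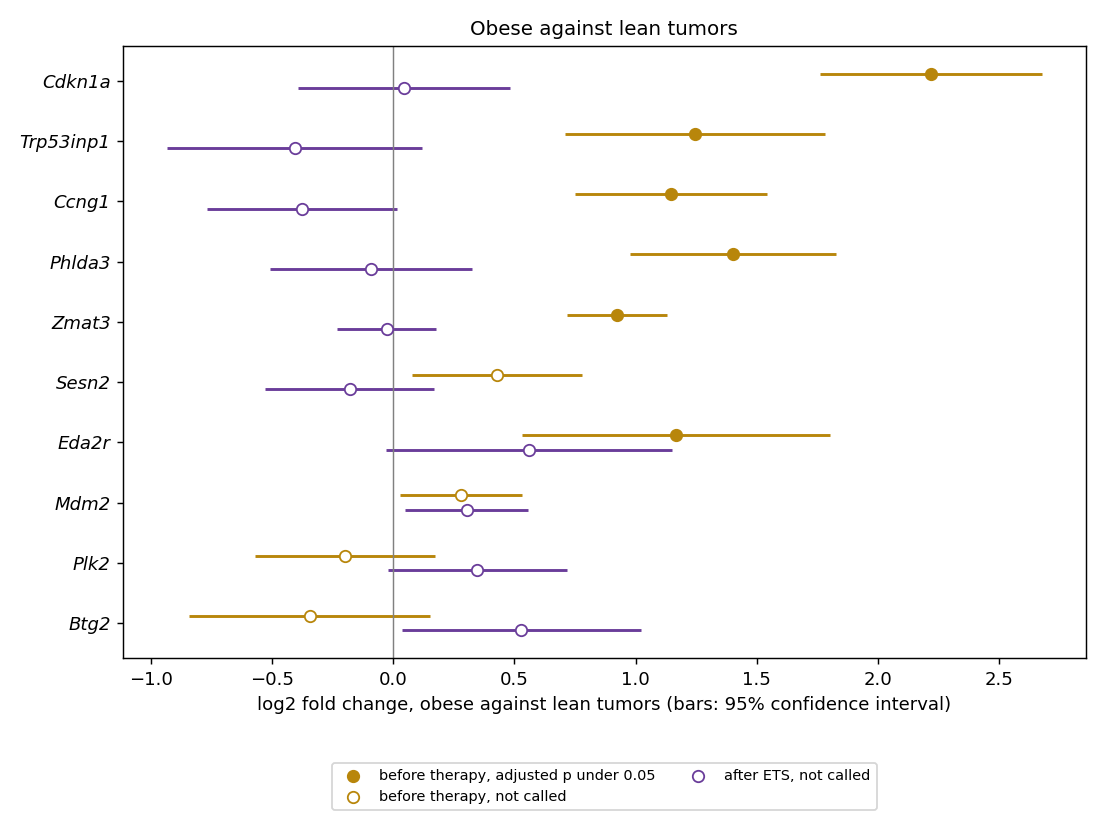
Log2 fold change of obese against lean tumors before therapy (gold) and after ETS (purple) for the 10 genes, with 95% confidence intervals and open points where the adjusted p was not under 0.05. The 6 filled gold points lie between 0.92 and 2.22, and all 10 purple points are open, between -0.41 and 0.56.

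Across the 16 tumors, Pearson's r of log2 CPM with Cdkn1a ran from 0.65 for Btg2 to 0.98 for Phlda3, a description over points that share host, treatment and library. Among 13314 genes of at least 1 CPM, ordered by this likeness to Cdkn1a, Phlda3 had rank 3 and Zmat3 rank 10, whereas Plk2 had rank 1680 and Btg2 rank 2173. The 5 genes outside the 10 with the most similar pattern were Cox7a1 (r = 0.98), Ckb (0.98), Faim2 (0.98), Zfp365 (0.98) and Cox7a2l (0.98). Their log2 fold changes after ETS were 4.10, 1.81, 3.87, 1.56 and 0.98 in lean tumors, and 1.40, 0.55, 1.69, 0.61 and 0.38 in the obese group. Of deviations from the group means, the closest pairs were Cdkn1a with Phlda3 (r = 0.89), Ccng1 with Eda2r (0.86) and Plk2 with Btg2 (0.81), and Mdm2 went most strongly against another gene with Ccng1 (-0.77). Plk2 and Btg2, which are also immediate early genes induced by growth signals, varied together over all 16 tumors as well (r = 0.97).

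The mRNA of Trp53 itself was not called higher in either host. It was at 103 ± 7.11 CPM in lean pre-therapy tumors and 93.4 ± 0.835 CPM after ETS (SD, n = 4), a log2 fold change of -0.14 (adjusted p = 0.0893, edgeR), and called lower on log2(TPM + 1) (-0.56, adjusted p = 0.000508, limma). In obese tumors Trp53 fell by 0.21 (adjusted p = 0.0200, edgeR), a call lost on log2(TPM + 1) (-0.25, adjusted p = 0.0726, limma). Mdm4, the relative of Mdm2 that masks the activation domain of p53, fell by 1.03 in lean tumors (standard error 0.32, adjusted p = 0.0175, edgeR). Its log2 fold change was -0.41 in obese tumors (adjusted p = 0.324), and the difference was not called (adjusted p = 0.380). Ppm1d, the phosphatase that shuts down damage signalling, had a log2 fold change of 0.15 in lean tumors (adjusted p = 0.266) and fell by 0.28 in obese tumors (adjusted p = 0.0443, edgeR), the latter not on log2(TPM + 1) (-0.35, adjusted p = 0.0617, limma). Cdkn2a, which encodes the Mdm2 inhibitor Arf, had 0 to 20 reads per tumor and none in 5 tumors, and was not tested. Of the 19 tested genes of p53, its regulators and the damage kinases, 1 rose and 8 fell in the lean host, and 1 rose and 9 fell in the obese host. On log2(TPM + 1) these counts were 0 and 14, and 1 and 6. On that scale 1351 of all 16209 tested genes were called higher and 7281 lower in the lean host. In the obese host 2572 were called higher and 3333 lower, and these totals apply to every list count on that scale. By edgeR the shares of all tested genes were 21.0% higher and 22.8% lower in the lean host, and 21.2% and 19.0% in the obese host. The gene that rose in both was Rchy1, a ubiquitin ligase for p53, by 0.50 and 0.41 on the log2 scale (adjusted p = 0.00149 and 0.00621), which was named after its values were seen.

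Paralogs are given as family members of the 10 genes, and whether p53 acts on any of them was not tested. Of 16 paralogs of the 10 genes that were tested, 5 rose and 6 fell in the lean host, and 2 rose and 5 fell in the obese host. Among all tested genes 21.0% rose and 22.8% fell in the lean host, and 21.2% rose and 19.0% fell in the obese host. On log2(TPM + 1) the counts of the paralogs were 2 and 9, and 1 and 5. Of all 16209 tested genes, 1351 were called higher and 7281 lower on that scale in the lean host, and 2572 and 3333 in the obese host. Trp53inp2 rose in both hosts, by 1.42 in lean (adjusted p = 4.45e-05, edgeR) and by 0.91 in obese tumors (log2, adjusted p = 0.00143). Sesn3 rose by 1.15 in lean tumors (adjusted p = 0.000349, edgeR), against a log2 fold change of 0.16 in obese tumors (adjusted p = 0.545), and this difference was called (0.997, adjusted p = 0.0208), though not on log2(TPM + 1) (0.68, adjusted p = 0.142, limma). In lean tumors Sesn1 was called higher (0.25, adjusted p = 0.0307, edgeR) but not on log2(TPM + 1) (-0.11, adjusted p = 0.420, limma). Phlda1 was also called higher there (0.46, adjusted p = 0.0156, edgeR) but not on log2(TPM + 1) (0.084, adjusted p = 0.648, limma). The median over all tested genes on that scale was -0.28 in lean tumors, below both. For Ccng2 the log2 fold change was 0.46 in the lean and -0.36 in the obese host (adjusted p = 0.155 and 0.273), and Btg1 fell by 0.79 on the log2 scale in lean tumors (adjusted p = 0.0336). Plk3 rose in obese tumors (0.56, adjusted p = 0.0371, and 0.43 with an adjusted p of 0.0798 on log2(TPM + 1)). In lean tumors Plk3 was at -0.18 (adjusted p = 0.473, edgeR), and at -0.47 with a call on log2(TPM + 1) (adjusted p = 0.0437, limma). Plk4, the centriole kinase, fell in both (-0.80 and -1.05, adjusted p = 0.000217 and 4.84e-05). Cdkn1b, which encodes p27, fell by 0.87 in lean and by 0.98 in obese tumors (log2, adjusted p = 0.0253 and 0.0153).

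Other p53 targets rose in part. Of 28 tested targets for repair, metabolism and other functions, 16 rose and 1 fell in the lean host, and 16 rose and 0 fell in the obese host. The shares of all tested genes were 21.0% higher and 22.8% lower in the lean host, and 21.2% and 19.0% in the obese host. On log2(TPM + 1) the counts of the 28 were 10 and 4, and 12 and 1. The median difference between hosts was 0.22 with TMM, against 0.052 over all tested genes. On log2(TPM + 1) it was -0.021, against -0.16 over all tested genes. Before therapy, 11 were higher and 3 lower in obese than in lean tumors, against 7 and 3 on log2(TPM + 1). By edgeR 13.5% of all tested genes were higher and 12.9% lower in that comparison. Dglucy, a D-glutamate cyclase of mitochondria, rose by 3.60 in lean (standard error 0.33, adjusted p = 3.72e-06, edgeR) and by 2.48 in obese tumors (log2, standard error 0.32, adjusted p = 6.77e-05). Ak1, an adenylate kinase, rose by 2.93 in lean (adjusted p = 1.34e-06) and by 1.85 in obese tumors (adjusted p = 4.50e-05). Dram1, a lysosomal protein of autophagy, fell from 9.03 ± 3.44 to 1.98 ± 1.09 CPM in lean tumors (SD, n = 4) and rose from 1.54 ± 1.08 to 8.02 ± 5.22 CPM in obese tumors (adjusted p = 0.00542 and 0.00397). Of 12 tested apoptosis targets, 6 rose and 2 fell in the lean host and 5 rose in the obese host, against 5 and 3, and 5, on log2(TPM + 1). Pmaip1, also on this list, was not tested because 1 tumor had 0 reads, and it is named here outside the naming rule. It had 64 to 154 reads in lean pre-therapy tumors and 9 to 36 after ETS. In obese tumors Pmaip1 had 0 to 38 reads before therapy and 40 to 159 after ETS. Tnfrsf10b, the death receptor for TRAIL, rose in both, by 1.38 and 1.17 on the log2 scale (adjusted p = 1.07e-06 and 7.57e-06). Bbc3, which encodes Puma, rose from 5.48 ± 1.14 to 13.2 ± 2.61 CPM in lean tumors (adjusted p = 0.000646) and was at 14.4 ± 2.13 CPM before and 14.4 ± 5.09 CPM after ETS in obese tumors, and this difference between hosts was called (1.27, adjusted p = 0.0147, edgeR), though not on log2(TPM + 1) (0.94, adjusted p = 0.0935, limma). Fas rose in obese tumors by 2.80 (adjusted p = 0.00147), against a log2 fold change of -0.95 in lean tumors (adjusted p = 0.142, edgeR) that was called on log2(TPM + 1) (-0.78, adjusted p = 0.00435, limma). Tnfrsf23, a decoy receptor, rose in obese tumors by 1.87 (adjusted p = 0.00235). Bid fell in lean tumors by 0.85 on the log2 scale (adjusted p = 0.000110), as did Apaf1, by 0.29 (adjusted p = 0.0459).

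Cell cycle genes that p21 and the DREAM complex are known to repress fell in both hosts. Of the 35 tested, 31 fell and 0 rose in the lean host, and 33 fell and 0 rose in the obese host, with median log2 fold changes of -0.68 and -0.76. Mki67 fell by 1.62 and 1.70 on the log2 scale (adjusted p = 0.000846 and 0.000765, edgeR) and Top2a, the target of ETS in dividing cells, by 1.31 and 1.29 (adjusted p = 1.59e-05 and 3.63e-05). For this list the difference between hosts was called for 1 gene, Cdk1 (0.48, adjusted p = 0.0328, edgeR), which was named after its value was seen, and not called on log2(TPM + 1). Before therapy Ccnb2 and Nusap1 were higher in obese tumors and Foxm1, E2f1, Mcm2, Mcm6 and Cdc6 lower, genes likewise named after their values were seen. In this comparison 13.5% of all tested genes were called higher and 12.9% lower. On log2(TPM + 1), 0 genes of the list were called higher and 7 lower, against 1127 and 2765 of all 16209 tested genes. The summed level of all 35 genes of the list was 4993 to 5446 CPM in lean and 4544 to 5131 CPM in obese pre-therapy tumors, ranges that overlap.

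Sesn2 belongs to the integrated stress response and Plk2 and Btg2 to the immediate early genes as well as to the p53 targets. Of the 14 integrated stress response targets other than Sesn2, 1 rose and 8 fell in the lean host, and 0 rose and 6 fell in the obese host. Among them was Slc7a11, the cystine transporter, which fell by 2.17 and 1.56 on the log2 scale (adjusted p = 0.000527 and 0.00453, edgeR). The gene that rose was Ddit4, by 0.76 in lean tumors (adjusted p = 0.0424, edgeR), a call lost on log2(TPM + 1) (0.38, adjusted p = 0.331, limma). Atf4 fell by 1.49 in lean and by 1.30 in obese tumors (adjusted p = 0.00620 and 0.0144, edgeR). Atf3 fell by 1.86 in lean tumors (adjusted p = 0.00936), against a log2 fold change of -0.17 in obese tumors (adjusted p = 0.821), and this difference was not called (-1.70, adjusted p = 0.119). Before therapy, 7 of the 14 were higher in obese tumors and 0 lower, against 13.5% and 12.9% of all tested genes. Of the 14 immediate early genes other than Plk2 and Btg2, 0 rose and 5 fell in the lean host, and 3 rose and 0 fell in the obese host. The shares of all tested genes were 21.0% higher and 22.8% lower in the lean host, and 21.2% and 19.0% in the obese host. The 3 immediate early genes that rose in the obese host were near that share. With Plk2 and Btg2 included, 2 of 16 rose and 5 fell in lean tumors, against 0 and 8 on log2(TPM + 1). On that scale 1351 of all 16209 tested genes were called higher and 7281 lower in lean tumors. In lean tumors Egr1 had a log2 fold change of -2.16 and Egr2 of -2.17 (adjusted p = 0.000193 and 0.00386). In obese tumors Egr2 and Egr3 rose by 1.51 and 1.19 (adjusted p = 0.0276 and 0.0183), and the call of Egr3 was lost on log2(TPM + 1) (0.22, adjusted p = 0.131, limma).

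**Figure D5:**
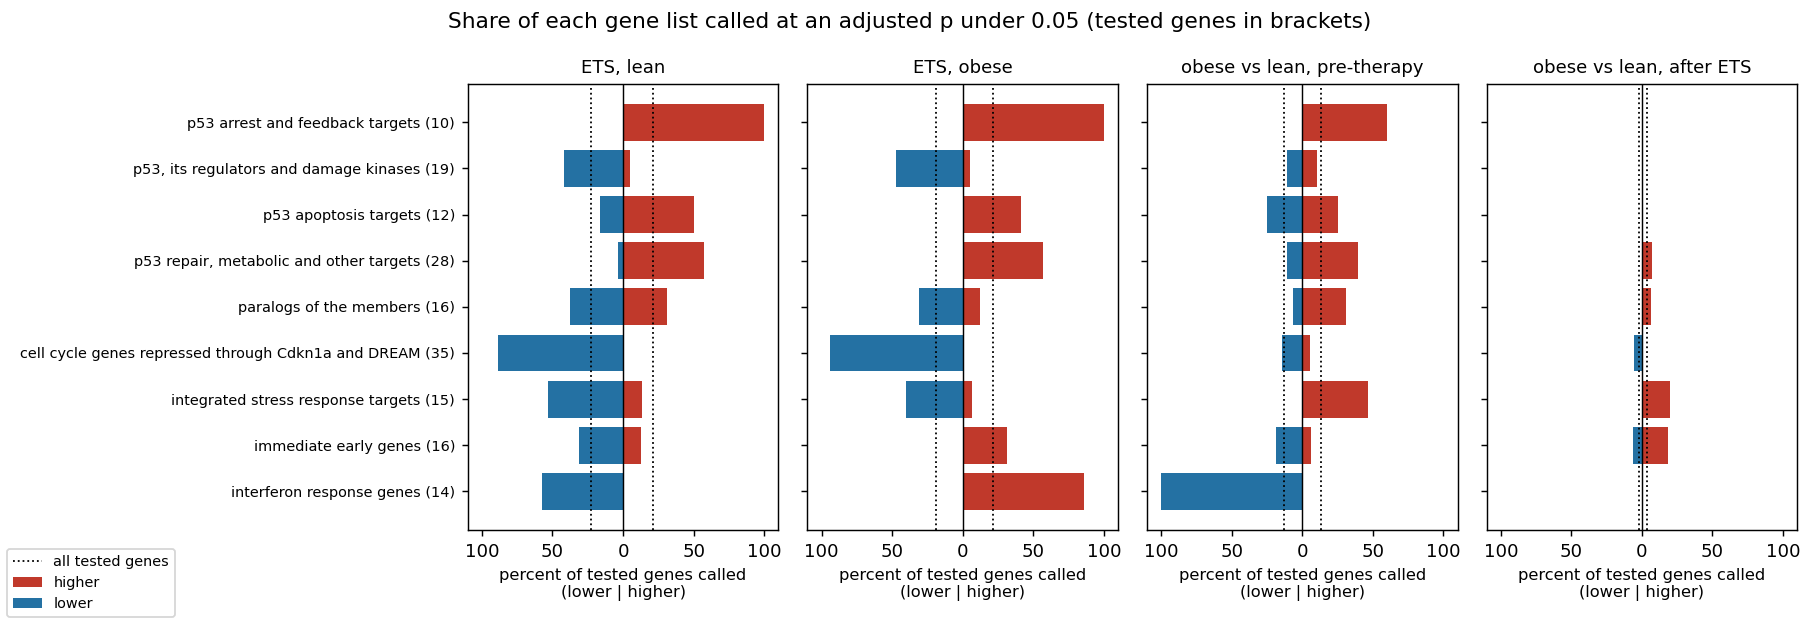
Percent of the tested genes of each list (number in brackets) called higher (red, to the right) or lower (blue, to the left) at an adjusted p under 0.05 in 4 comparisons, with dotted lines at the share among all tested genes. The 10 targets reach 100 percent higher after ETS in both hosts and 60 percent in obese against lean tumors before therapy, and none was called after ETS.

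Markers of host cells moved with the same groups. Macrophage markers summed to 454 to 1417 CPM in lean pre-therapy tumors and to 56.9 to 440 CPM after ETS, and to 49.3 to 270.4 CPM in obese pre-therapy tumors and 371 to 1143 CPM after ETS. Of the 12 genes, 9 fell in lean and 9 rose in obese tumors, with Adgre1 at 51.1, 7.79, 5.29 and 20.7 CPM and Cd68 at 81.3, 40.6, 14.9 and 75.6 CPM as means of lean pre-therapy, lean ETS, obese pre-therapy and obese ETS tumors. Pdgfra was at 8.43, 2.50, 2.30 and 18.7 CPM and Pecam1 at 44.8, 34.7, 20.6 and 46.0 CPM in the same order. Fibroblast markers fell for 6 of 10 in lean and rose for 10 of 10 in obese tumors, endothelial markers fell for 2 of 10 (5 of 10 on log2(TPM + 1)) and rose for 7 of 10, and interferon response genes fell for 8 of 14 and rose for 12 of 14, and 13 fell and 13 rose on log2(TPM + 1). Beside these counts, 22.8% of all tested genes were called lower in lean tumors and 21.2% higher in obese tumors. The lean endothelial count was near that share of genes called lower. On log2(TPM + 1), 7281 of all 16209 tested genes were called lower in lean tumors and 2572 higher in obese tumors. Cxcl9 had a log2 fold change of -5.40 and Gbp2 of -4.88 in lean tumors (adjusted p = 0.000322 and 0.000140, edgeR), and Irf7 and Ifi44 rose by 3.79 and 3.42 in obese tumors (adjusted p = 0.000110 and 3.79e-05). T and NK cell markers, of which none of 12 was tested because each was at 0 in some tumor, summed to 51.2 to 88.6 CPM in lean pre-therapy tumors and to at most 5.27 CPM in any other tumor, with Cd3e at 139 to 258 reads in the former and at 0 in all obese pre-therapy tumors. Melanocyte markers rose for 4 of 12 in lean and for 6 of 12 in obese tumors (2 and 4 on log2(TPM + 1)) and were lower for 8 of 12 in obese pre-therapy tumors, where all 12 together summed to 11915 to 16310.1 CPM against 19874 to 25289 CPM in lean ones. Adipocyte markers summed to 11.4 to 275.2 CPM and skeletal muscle markers to 1.51 to 464 CPM over all tumors, with 2 of 8 tested in each list. The part of these cell type differences in the results was not tested.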

How the data were processed

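RNA of 16 tumors was analysed, grouped by the sample labels. The authors aligned reads of a stranded poly(A) library kit to mm10 with HISAT2 2.1.0 and quantified genes with StringTie 2.1.3b, with these versions taken from the submitters' processing notes, and deposited read counts per gene, not normalized, beside TPM values from the same step. The deposited FPKM values were not used. Whether counting used strand is not given in the sources used here.

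As in the study's methods, the 29568 of 45777 genes without a read in at least 1 tumor were excluded. The study used an exact test on counts plus 1. Here edgeR's quasi-likelihood test (edgeR 4.0.16, R 4.3.3, TMM, a mean per group, 12 residual degrees of freedom, Benjamini-Hochberg adjustment over all 16209 genes) was the main test and the exact test an alternative. Standard errors were derived by dividing the log2 fold change by the root of F. The common biological coefficient of variation was 0.233. The test was checked on simulated data with known changes, of which it recovered most of the large and fewer of the small ones, so an uncalled gene may have a small change.

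The 10 genes, the lists and the naming rule were chosen with earlier results of these data known. Named genes are the 10, fixed regulators (Trp53, Mdm4, Ppm1d, Cdkn2a) and paralogs, and from each other list the 2 highest and 2 lowest called log2 fold changes after ETS in each host. From lists of cell markers only counts, sums and at most the first 2 markers are given. Both are named for melanocytes and macrophages, only the first for fibroblasts, endothelium and T and NK cells, and none for adipocytes and muscle. Likeness to Cdkn1a was ranked by Pearson's r. Alternatives were DESeq2's size factors, no exclusion of genes with a 0, filterByExpr, the exact test, DESeq2 1.42.0, limma-voom with sample weights and limma on log2(TPM + 1) or log2(TPM + 0.1) (limma 3.58.1), only the groups compared, the replicate number as a block and each tumor left out. Positions and promoters come from RefSeq on GRCm38.p6, and overlapping genes from GENCODE.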

Additional observations from a re-analysis of the deposited data

Results flagged for a closer look

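The change after ETS differed between hosts, by the interaction test of edgeR, for 5 of the 10 targets. In the order of their size on the log2 scale, lean minus obese, these were Cdkn1a at 2.17, Trp53inp1 at 1.65, Ccng1 at 1.52, Phlda3 at 1.49 and Zmat3 at 0.95, with adjusted p-values of 0.000185, 0.00490, 0.00112, 0.00197 and 0.000277.

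Of the 35 other genes that the naming rule took from the lists, 15 differed between hosts in the same test. Cdkn2a, which is among the 35, was not tested. Apart from the fixed regulators and paralogs, these genes were named for an extreme called change after ETS in either host. Host differences among them can follow from that choice and are no test. For this difference, 6.35% of all tested genes were called higher and 10.1% lower. Larger or more positive changes in lean tumors were found for Ddit4 (1.51, adjusted p = 0.0197), Bbc3 (1.27, adjusted p = 0.0147), Ak1 (1.07, adjusted p = 0.0263) and Sesn3 (0.997, adjusted p = 0.0208). More negative values were found for Bid (-1.01, adjusted p = 0.00107), Tnfrsf23 (-2.09, adjusted p = 0.0184), Egr1 (-2.41, adjusted p = 0.00247), Egr3 (-2.83, adjusted p = 0.00165), Egr2 (-3.67, adjusted p = 0.00281), Fas (-3.75, adjusted p = 0.00337) and Dram1 (-4.57, adjusted p = 0.00112). The interferon response genes had the most negative values of the named genes, with Irf7 at -5.56 (adjusted p = 0.000107), Ifi44 at -5.94 (adjusted p = 1.07e-05), Gbp2 at -6.69 (adjusted p = 0.000285) and Cxcl9 at -7.46 (adjusted p = 0.000640).

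Dixon's test for a tumor far from the other 3 of its group was applied 108 times, to each of the 10 genes, to their mean and to the summed levels of the gene lists, and chance marks about 1 in 20 groups. It marked 6 values and none of the 40 for single targets. The mean log2 CPM of the 10 targets was 4.14 in the third lean pre-therapy tumor against 4.67 to 4.74 in the others. Among tumors after ETS, the summed level of the cell cycle genes was 3374 CPM in the third lean tumor against 3028 to 3072 CPM, that of the immediate early genes was 572 CPM in the second lean tumor against 498 to 506 CPM, and that of the interferon response genes was 527 CPM in the first lean tumor against 404 to 422 CPM. In obese tumors after ETS the integrated stress response targets summed to 1617 CPM in the fourth against 721 to 773 CPM, and skeletal muscle markers to 464 CPM in the second against 3.71 to 4.91 CPM.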

How the results depend on the processing

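Over 1280 values of the 10 targets recomputed under the alternatives, 1244 kept their direction and their side of the threshold. The counts of called targets stayed at 9 to 10 in lean tumors, 10 to 10 in obese tumors, 5 to 7 for the difference, 6 to 7 before therapy and 0 to 0 after ETS with each tumor left out. The comparison of hosts after ETS moved most. Of all genes it called 904, against 450 without the exclusion of genes with a 0, 1564 by the exact test, 2017 by DESeq2, 66 from the groups compared alone, and 186 (without the fourth lean tumor after ETS) to 1347 (without the second obese one) with a tumor left out. The cause was not tested.

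With the replicate number as a block, 1683 genes and 1 target, Mdm2, were called after ETS (0.30, adjusted p = 0.0386, edgeR), and before therapy 7 targets, Mdm2 among them (0.28, adjusted p = 0.0186). Same-numbered tumors had correlations of deviations from -0.11 to 0.45, with 11 of 24 pairs over 0.1, and 5 of 16 tumors correlated best with their own number, so the numbers were not taken as pairs.

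Among the values of the 10 targets, signs changed only for those that were not called. The Mdm2 difference was 0.0086 with filterByExpr, 0.064 with limma-voom and -0.11 to 0.045 with a tumor left out, and that of Eda2r was -0.20 on log2(TPM + 1). After ETS, limma-voom, log2(TPM + 1) and log2(TPM + 0.1) gave 0.047, 0.073 and 0.074 for Phlda3 and 0.022, 0.11 and 0.11 for Zmat3. With a tumor left out the host difference after ETS ran from -0.18 to 0.053 for Phlda3, from -0.062 to 0.072 for Zmat3 and from -0.011 to 0.14 for Cdkn1a. The Btg2 difference was called by DESeq2 (-0.87, adjusted p = 0.0459), and those of Bbc3, Ak1, Sesn3 and Ddit4 were not called on log2(TPM + 1). The depth of 47199949 to 61655287 counts limits Eda2r most among the 10.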
